A study of Mus musculus with 9 samples.

Results

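Mouse embryonic stem cells (ESCs) that carry a catalytically dead DNMT1 protein and no active one were compared with wild-type (WT) ESCs before and during differentiation into epiblast-like cells (EpiLCs). The comparison used 6 of the 9 RNA-seq libraries of the series, 1 for each line at days 0, 2 and 4, and covered all 15074 named genes and all 38385 repeat copies of the deposited tables. WT cells were the J1 ESC line. 1KO cells were J1 cells with both Dnmt1 alleles disrupted (Dnmt1-/-), and 1KO+1CI cells were 1KO cells with an added transgene in which the ubiquitously active CAG promoter drives DNMT1 C1229S (DNMT1CI). Thus 1KO+1CI cells shared with 1KO cells the loss of endogenous DNMT1 and differed from them by the transgene, and the 3 libraries of 1KO cells are given only beside the comparison. Day 0 cells were ESCs grown on mitotically inactive mouse embryonic fibroblast feeders with serum and LIF. For days 2 and 4 the feeders were depleted by a short incubation on gelatin, and the cells passed through embryoid bodies into an adherent culture without LIF. The study established 2 independent, antibiotic-selected clones of the transgenic line. Values of this line are headed CI6, which the labels do not explain, and they do not say which clone these libraries hold. Each line and day is 1 library, so no difference at a single day has a replicate check or a p-value.

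DNMT1 copies the methylation of CpG sites to the new DNA strand after replication, and without this activity methylation is lost over cell divisions. Promoters of many germline genes, one parental allele of imprinting control regions, and long terminal repeat (LTR) retrotransposons such as the intracisternal A particle (IAP) are kept silent by this methylation in embryonic cells. ESCs tolerate its loss, whereas differentiating cells depend on it far more, and the passage from ESC to EpiLC is the time at which methylation normally rises. In 1KO+1CI cells the DNMT1 protein is present without its enzymatic activity.

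The sequence change of the transgene is shown first because it defines the line. Residue 1229 of DNMT1 is the cysteine that attacks the cytosine base, and C1229S replaces it by serine. In the mm10 reference the residue is encoded in exon 32 of 39 of transcript Dnmt1-201 on the minus strand, at chr9:20911813-20911815. The reference coding strand is given with that codon in capitals.
Dnmt1 codon 1229: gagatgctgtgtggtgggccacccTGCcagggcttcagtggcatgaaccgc

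Among the genes that stayed higher in 1KO+1CI cells on every day, the promoters found held 0 to 46 CpG. As examples, 4 of these promoters are shown, which do not cover the whole range. They are RefSeq windows on GRCm38.p6, the assembly that mm10 names, from 250 bases before to 50 bases after the start of transcription, read in the direction of the gene, with each CpG in capitals. Gpat2 (chr2:127424949-127425248, plus strand) has 15 CpG, Slc25a31 (chr3:40708621-40708920, plus strand) has 22, Xlr3b (chrX:73191929-73192228, plus strand) has 7, and Pnma5 (chrX:73037054-73037353, minus strand) has 1.
Gpat2: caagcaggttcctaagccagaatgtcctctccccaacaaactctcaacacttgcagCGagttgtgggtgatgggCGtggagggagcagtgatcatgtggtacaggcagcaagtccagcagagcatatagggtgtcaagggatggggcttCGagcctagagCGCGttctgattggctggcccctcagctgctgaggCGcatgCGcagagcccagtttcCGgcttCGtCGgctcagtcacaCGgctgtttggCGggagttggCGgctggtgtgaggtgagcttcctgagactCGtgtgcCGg
Slc25a31: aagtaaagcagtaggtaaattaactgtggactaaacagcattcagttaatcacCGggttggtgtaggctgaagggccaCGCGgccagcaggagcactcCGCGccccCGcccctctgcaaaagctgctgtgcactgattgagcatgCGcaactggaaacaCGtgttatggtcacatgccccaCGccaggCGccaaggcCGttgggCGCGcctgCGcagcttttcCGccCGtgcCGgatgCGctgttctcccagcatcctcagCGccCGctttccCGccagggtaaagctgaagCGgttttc
Xlr3b: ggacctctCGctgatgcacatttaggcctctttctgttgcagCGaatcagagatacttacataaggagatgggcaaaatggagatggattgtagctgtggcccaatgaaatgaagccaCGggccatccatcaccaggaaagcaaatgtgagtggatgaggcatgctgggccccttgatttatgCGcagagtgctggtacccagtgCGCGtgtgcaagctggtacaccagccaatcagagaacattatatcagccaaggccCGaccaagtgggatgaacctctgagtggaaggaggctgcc
Pnma5: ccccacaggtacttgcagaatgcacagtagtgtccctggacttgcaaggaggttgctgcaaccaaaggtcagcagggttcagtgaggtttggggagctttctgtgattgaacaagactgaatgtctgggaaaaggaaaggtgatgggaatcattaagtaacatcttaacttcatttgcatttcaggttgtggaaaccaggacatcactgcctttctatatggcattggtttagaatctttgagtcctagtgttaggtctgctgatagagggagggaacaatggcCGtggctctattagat

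All values are FPKM (fragment counts scaled to transcript length and library size), differences are 1KO+1CI minus WT in log2(FPKM + 1), and 3 values in a row follow the order of days 0, 2 and 4. A gene is called raised or lowered on a day when the difference reached 1 in size, and lasting when it did so in the same direction on all 3 days. These words mark a size, with no test. The pseudocount of 1 makes the differences of weakly expressed genes smaller than the ratio of their FPKM. For a test over the whole table, limma was fitted with the day and the line as terms, and its p-values, adjusted by the Benjamini-Hochberg method over all 15074 genes, ask whether the mean difference over the 3 days exceeds its variation between days. They carry no information on the spread between clones or cultures. If 1 step of the FPKM values is 1 fragment, the depth of these 6 libraries was 20100000 to 24300000 counted fragments, and 1 FPKM over a kilobase of transcript stands for 20.1 to 24.3 fragments. The ESC markers Pou5f1, Sox2, Nanog, Zfp42 and Esrrb were high in both lines at day 0, with Pou5f1 at 632 FPKM in WT and 766 in 1KO+1CI cells.

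With the limit of 1, more genes were raised than lowered on every day, but with a limit of 0.5 the order turned at day 0, with 1459 raised and 1883 lowered. With the limit of 1, at day 0, 383 of the 15074 genes (2.54%) were raised and 297 (1.97%) lowered. Day 2 had 343 raised (2.28%) and 190 lowered genes (1.26%). At day 4 the counts were 454 (3.01%) and 154 (1.02%). Most of these differences belonged to a single day, since of 926 genes raised on at least 1 day 730 were raised on exactly 1, 138 on 2 and 58 on all 3. The 58 lasting raised genes are 0.385% of all genes. Of 570 genes lowered on at least 1 day, 507 were lowered on 1 day, 55 on 2 and 8 on all 3 (0.0531%). Both counts include 60 genes that were raised on one day and lowered on another. The median difference over all genes was -0.03, 0.02 and 0.00. Just inside the limit were Cubn (1.01 on its lowest day) and Gm45929 (-1.01), and just outside it were Col1a2 (0.98) and Capsl (-0.99).

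By limma, 21 genes were higher (0.139% of all) and 1 was lower (0.00663%) over the 3 days at an adjusted p below 0.05, and all 22 were among the lasting genes, which rest on the same 6 libraries. 2265 genes had an unadjusted p below 0.05. Of the 58 lasting raised genes, 15 stayed below 1 FPKM in all 3 WT libraries. The largest of the 3 differences fell on day 0 in 20 of the 58, on day 2 in 16 and on day 4 in 22. In 1KO cells, 56 of the 58 were above WT on all 3 days too. Of the 66 lasting genes, 63 had an annotated transcript length, from which approximate fragment counts were derived. In all 189 pairs of such a gene and a day the 95% exact binomial (Clopper-Pearson) interval of the FPKM ratio left out 1. These intervals cover counting error only, and 19 of the genes had fewer than 10 fragments in a WT library. The genes were picked by their differences in the same libraries, so the intervals give them no separate support.

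**Figure D1:**
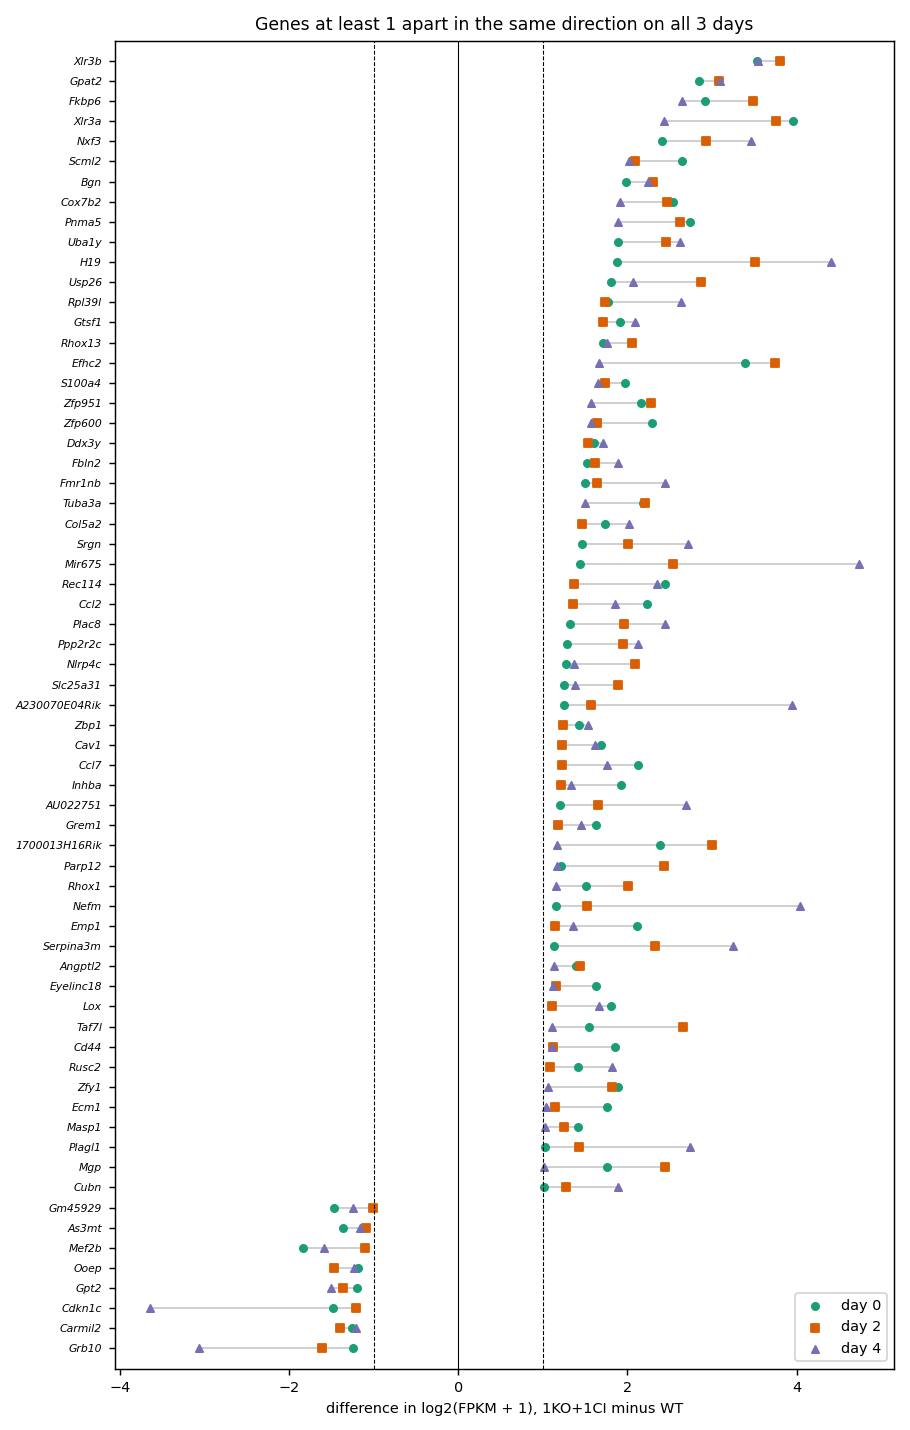
Differences in log2(FPKM + 1), 1KO+1CI minus WT, on the horizontal axis for the lasting genes reported here, with 1 symbol for each day and dashed lines at 1 and -1. Most raised genes lie between 1 and 3 on every day, whereas H19, Mir675, Nefm, A230070E04Rik, Serpina3m, Cdkn1c and Grb10 are among those with a day 4 difference much larger than that of day 0.

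Dnmt1 itself was 74, 80.4 and 48.5 FPKM in WT, 13.7, 17.4 and 12.3 in 1KO and 315, 129 and 158 in 1KO+1CI cells. Its difference from WT was 2.07, 0.68 and 1.68, so Dnmt1 RNA exceeded the WT level on each day, but by less than 1 at day 2 (limma mean difference 1.48 ± 0.26 SE, adjusted p = 0.0963). FPKM cannot tell transgene from endogenous reads, and whether the 1KO reads come from the disrupted alleles was not tested. Of 15 measured genes for DNA methylation and its removal none was lasting, and the medians were 0.07, 0.21 and -0.06. The de novo cofactor Dnmt3l was raised at days 0 and 2 (2.27, 1.08 and 0.32), with 41.3, 144 and 42.9 FPKM in WT and 203, 304 and 53.7 in 1KO+1CI cells. Dnmt3a, a de novo methyltransferase, differed by 0.15, 0.75 and -1.30, and the dioxygenase gene Tet2 by 0.40, -1.12 and -0.42. Uhrf1, which brings DNMT1 to hemimethylated DNA, differed by at most 0.31. Among 19 repressors of retroviruses none was lasting, and the list medians were 0.12, 0.05 and -0.10. Zfp809, whose KRAB zinc finger protein silences retroviruses, had the highest mean difference (1.10, 0.46 and 0.58), and Ehmt2 the lowest (-0.33, -0.28 and -0.10).

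Several lasting raised genes belong to the germline. Of the 51 listed genes that promoter methylation is known to silence in somatic cells, 42 were measured, and 6 of these were lasting, namely Fkbp6, Tuba3a, Taf7l, Nlrp4c, Slc25a31 and 1700013H16Rik. Over all genes, 0.385% were lasting raised. The list was chosen with earlier results of these data known, so this comparison gives no independent support. Fkbp6 (chr5:135291704-135350044, minus strand), a cochaperone of meiosis and the piRNA pathway, was 0.547, 1.29 and 0.359 FPKM in WT and 10.6, 24.6 and 7.52 in 1KO+1CI cells, and its values in 1KO cells were 13.9, 21.8 and 7.53. The differences were 2.91, 3.48 and 2.65 (limma mean difference 3.01 ± 0.22 SE, adjusted p = 0.0306). Tuba3a, a testis alpha-tubulin on chromosome 6, went from 3.4, 3.39 and 2.36 FPKM in WT to 19, 19.4 and 8.51 (limma mean difference 1.97 ± 0.20 SE, adjusted p = 0.0496). Slc25a31, the testis ADP/ATP carrier whose promoter is printed above, had 0.321, 1.15 and 1.06 FPKM in WT and 2.14, 6.97 and 4.37 in 1KO+1CI cells. It did not pass the limma test (adjusted p = 0.0672). Taf7l, a germ cell paralogue of a TFIID subunit on the X chromosome, differed by 1.54, 2.65 and 1.11, Nlrp4c, an oocyte gene, by 1.27, 2.08 and 1.36 and 1700013H16Rik, also X-linked, by 2.38, 3.00 and 1.16.

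The group was not higher as a whole on every day. Over all genes, 2.54%, 2.28% and 3.01% were raised and 1.97%, 1.26% and 1.02% lowered, shares that also stand beside the list counts below. The median difference of the germline list was 0.57, 0.54 and 0.04, beside medians of -0.03, 0.02 and 0.00 over all genes. In this list 17, 18 and 6 genes were raised and 1, 1 and 5 lowered. Dazl, an RNA-binding protein of germ cells, showed this fall-off. It was 1.93, 2.3 and 2.11 FPKM in WT and 13.6, 13.3 and 2.2 in 1KO+1CI cells, a difference of 2.31, 2.12 and 0.04. Mael, a piRNA factor, differed by 1.5, 1.60 and -0.47, with 3.52, 2.57 and 8.63 FPKM in WT and 11.8, 9.78 and 5.94 in 1KO+1CI cells. Tex14 had the lowest mean over the 3 days (-0.63, -1.28 and -0.37), and Ddx4, a helicase of germ cells, was close to WT throughout (0.09, 0.39 and -0.43). Whether the difference changed with the day cannot be tested with 1 library for each line and day.

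Gpat2, Rpl39l, Cox7b2, Gtsf1 and Rec114 were lasting raised genes outside the list, put together here with their values already seen. Gpat2 (chr2:127425199-127436092, plus strand), a mitochondrial acyltransferase homologue needed for piRNA production, was 0.944, 0.881 and 0.455 FPKM in WT, 14, 14.6 and 12.5 in 1KO and 12.9, 15 and 11.4 in 1KO+1CI cells. Its differences from WT were 2.84, 3.09 and 3.09 (limma mean difference 3.01 ± 0.17 SE, adjusted p = 0.0143). Gtsf1, another piRNA factor, had 0.61, 0.518 and 0.267 FPKM in WT and 5.04, 3.96 and 4.38 in 1KO+1CI cells (limma mean difference 1.90 ± 0.17 SE, adjusted p = 0.0357). Rpl39l, a testis-enriched ribosomal protein paralogue, was 10.5, 14.9 and 3.67 in WT and 38.5, 51.7 and 28 in 1KO+1CI cells (limma mean difference 2.05 ± 0.20 SE, adjusted p = 0.0487), and reads from its close copy Rpl39 could be split differently by the counting. Cox7b2, a testis form of a cytochrome c oxidase subunit, differed by 2.54, 2.47 and 1.91 (limma adjusted p = 0.0357). Rec114, needed for meiotic DNA breaks and overlapping Nptn on the other strand, differed by 2.44, 1.37 and 2.35 without passing limma (adjusted p = 0.0672).

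The X chromosome held 14 of the 58 lasting raised genes (24.1%), against 3.68% of all measured genes, and none of the lowered ones. Its genes were not shifted as a whole, with medians of 0.02, 0.05 and 0.07 over 477 genes that reached 1 FPKM. Xlr3b (chrX:73192207-73202930, plus strand), an X-linked lymphocyte-regulated gene of a meiotic chromatin protein family, had the largest lasting difference, judged by the day with the smallest. It was 0.27, 0.127 and 0.177 FPKM in WT, 12.7, 12.4 and 10.9 in 1KO and 13.7, 14.7 and 12.7 in 1KO+1CI cells, a difference of 3.53, 3.80 and 3.55 (limma mean difference 3.63 ± 0.18 SE, adjusted p = 0.0137). Its copy Xlr3a (chrX:73086293-73097095, minus strand) differed by 3.96, 3.76 and 2.43 (adjusted p = 0.0431), and since the copies are nearly identical the reads of one may be counted for the other. Xlr3b also overlaps Xlr5a on the other strand. Pnma5 (chrX:73033981-73037103, minus strand), a gene derived from a retroelement, lies on the side of Xlr3a away from Xlr3b and had 2.6, 3.77 and 2.01 FPKM in WT and 23.1, 28.2 and 10.2 in 1KO+1CI cells (limma mean difference 2.42 ± 0.21 SE, adjusted p = 0.0357).

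Nxf3, a tissue-restricted member of the RNA export factors, was 0.016, 0.36 and 0.144 FPKM in WT and 4.41, 9.37 and 11.6 in 1KO+1CI cells (limma mean difference 2.94 ± 0.24 SE, adjusted p = 0.0357). Scml2, a germline Polycomb protein, was 0.395, 0.705 and 0.288 in WT and 7.7, 6.28 and 4.22 in 1KO+1CI cells, and its 1KO values were 3.0, 3.54 and 4.22 (limma mean difference 2.25 ± 0.20 SE, adjusted p = 0.0357). Usp26, a testis ubiquitin protease, differed by 1.81, 2.87 and 2.06 (adjusted p = 0.0575), Efhc2 by 3.39, 3.75 and 1.66 and Fmr1nb by 1.5, 1.64 and 2.44. Only 5 of 33 listed Rhox genes, the reproductive homeobox cluster, were in the table, which lists a gene only when all 9 libraries are above 0. Of these, Rhox1 (1.5, 2.01 and 1.15) and Rhox13 (1.71, 2.06 and 1.76; limma adjusted p = 0.0357) were lasting, Rhox5 differed by 0.19, -0.16 and 0.22, Rhox6 by 1.09, -0.95 and 1.49 and Rhox9 by 0.68, -1.58 and -0.43, with medians of 1.09, -0.16 and 1.15. From 29 listed Xlr and Mage genes 5 were measured, of which only the Xlr3 pair was lasting, Mageb16 had the lowest mean over the 3 days (-0.27, -0.20 and -0.74), and the medians were 0.35, 0.62 and 1.69.

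Promoter windows were found for 11638 of the 15074 genes and for 42 of the 58 lasting raised genes. The lasting raised genes had a median of 9 CpG in 300 bases, with quartiles of 5 and 14.5, and the whole table had 20 with quartiles of 12 and 28. At least 10 CpG were present in 20 of the 42 (47.6%) and in 80.7% of all windows. The windows of the germline list had a median of 19.5 CpG, close to that of the whole table. The E-box CACGTG occurred in 5 of the 42 lasting raised windows, in 14 of the 36 germline list windows (38.9%) and in 10.2% of all windows. The E2F6 core TCCCGC, searched on both strands, as was the E-box, occurred in 10 of the 42, in 16 of the 36 and in 35.7% of all, and both motifs occurred in 3 of the 42 (Slc25a31, Plagl1 and Rec114) and in 3.97% of all. The motifs may share 1 base. A match is a run of letters, and binding was not measured.

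Imprinted genes were among the extremes of day 4. H19 (chr7:142575529-142578143, minus strand), a maternally expressed noncoding RNA whose control region is methylated on the paternal allele, was 53, 6.8 and 7.98 FPKM in WT, 516, 86.7 and 184 in 1KO and 197, 87.9 and 189.5 in 1KO+1CI cells. The difference was 1.87, 3.51 and 4.41 and did not pass limma (adjusted p = 0.0675). Mir675, which lies inside H19 on the same strand and shares its reads, differed by 1.43, 2.54 and 4.74, a measure of the host transcript and not of the mature microRNA. Igf2, the paternally expressed growth factor gene next to H19, was 49.6, 11.2 and 16.7 FPKM in WT and 25.9, 4.38 and 6.11 in 1KO+1CI cells, a difference of -0.91, -1.18 and -1.31 that missed the limit at day 0 and did not pass limma (adjusted p = 0.0672).

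In the same region of chromosome 7, Cdkn1c (chr7:143458339-143461050, minus strand), a maternally expressed inhibitor of the cell cycle, was lasting lowered. WT cells had 17.5, 21.8 and 42.7 FPKM and 1KO+1CI cells 5.59, 8.86 and 2.48, a difference of -1.49, -1.21 and -3.65. Phlda2, its maternally expressed neighbour, differed by -1.50, -0.39 and -1.60. Grb10 (chr11:11930508-12038683, minus strand), an adaptor protein that restrains insulin signalling, was 40.3, 52.7 and 94 in WT, 14, 17 and 9.66 in 1KO and 16.4, 16.5 and 10.3 in 1KO+1CI cells, a difference of -1.25, -1.61 and -3.07. For Cdkn1c and Grb10 the WT level was higher at day 4 than at day 0 and that of 1KO+1CI cells was lower, and neither passed limma (adjusted p = 0.131 and 0.0937). Over the 22 measured maternally expressed genes the medians were 0.10, 0.18 and 0.04, with 3, 5 and 2 raised and 4, 2 and 3 lowered.

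Of the 29 measured paternally expressed genes, 3, 9 and 8 were raised and 1 was lowered on each day, with medians of 0.26, 0.55 and 0.52. Plagl1, a zinc finger gene of an imprinted growth network, was the lasting member, at 2.56, 1.47 and 1.98 FPKM in WT and 6.24, 5.63 and 19 in 1KO+1CI cells (1.02, 1.42 and 2.74). Peg3, also a zinc finger gene, had the highest mean difference, with 16.3, 12.7 and 11.6 FPKM in WT and 27.2, 45.6 and 115 in 1KO+1CI cells, but its day 0 difference of 0.70 was under the limit. Peg10, derived from a retrotransposon, differed by 0.57, 1.47 and 2.60, and Snrpn by 0.83, 1.34 and 0.50. Igf2 had the lowest mean of this list over the 3 days.

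**Figure D2:**
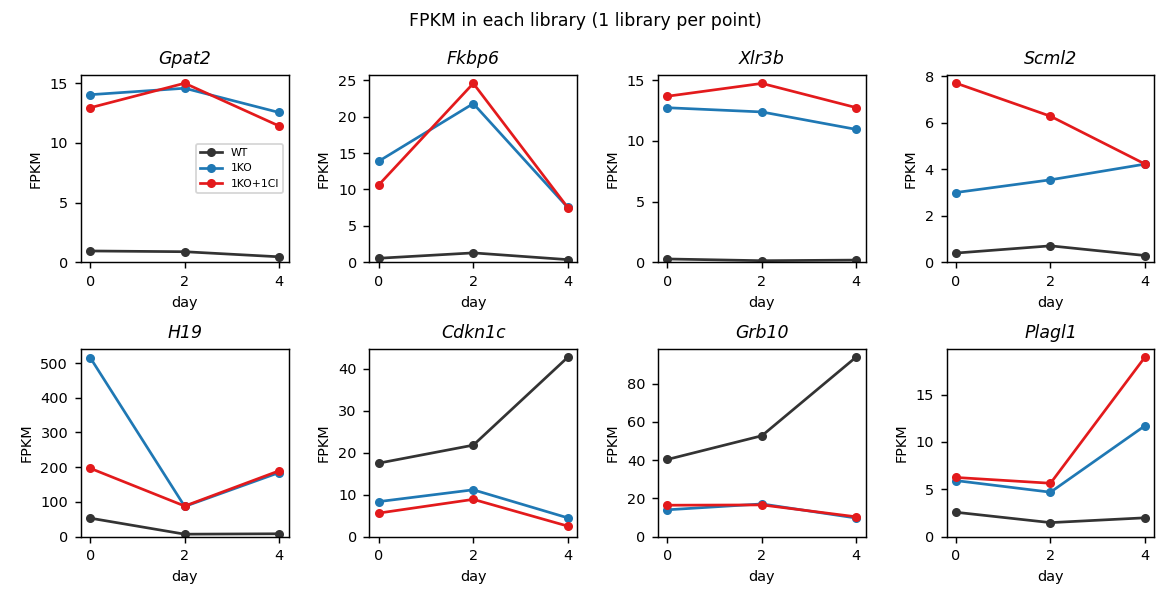
FPKM on the vertical axis by day for 8 lasting genes, each point 1 library of WT (black), 1KO (blue) or 1KO+1CI (red) cells. The 1KO+1CI values of Gpat2, Fkbp6, Xlr3b and Scml2 lie above the WT values on every day, H19 and Plagl1 separate most at day 4, and Cdkn1c and Grb10 are lower than WT on every day, with the widest gap at day 4.

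Lowered genes were concentrated on chromosome 8. Over its 741 genes that reached 1 FPKM the median difference was -0.54, -0.48 and -0.48, while the medians of the other autosomes and the X chromosome lay between -0.09 and 0.07 at day 0, -0.03 and 0.13 at day 2, and -0.02 and 0.07 at day 4. The shift ran along the chromosome. In 13 windows of 10 Mb the medians were between -0.63 and -0.26 at day 0, -0.55 and -0.38 at day 2, and -0.59 and -0.32 at day 4. Of the 741 genes, 536 (72.3%) were below WT on all 3 days, against 16.6% of the genes elsewhere. In 1KO cells the chromosome's median difference from the same WT libraries was -0.47, -0.49 and -0.47, and between 1KO+1CI and 1KO cells it was -0.05, 0.00 and 0.01. DNA was not measured in these files, and the cause of the shift was not tested.

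Chromosome 8 held 4 of the 8 lasting lowered genes (50.0%) with 5.37% of all genes, namely Gpt2, Carmil2, Mef2b and Gm45929. With lower limits in place of 1, the lasting lowered genes on it were 364 of 770 (47.3%) at 0.25, 142 of 200 (71.0%) at 0.5 and 20 of 37 (54.1%) at 0.75. Gpt2 (chr8:85492576-85527560, plus strand), a mitochondrial alanine aminotransferase, was 17.3, 34.6 and 25.9 FPKM in WT and 6.97, 12.8 and 8.47 in 1KO+1CI cells (limma mean difference -1.36 ± 0.13 SE, adjusted p = 0.0431) and was the single gene called lower by limma. When the chromosome 8 genes were raised by the chromosome's own median, it was no longer called. Mef2b, a transcription factor, differed by -1.84, -1.11 and -1.59, and Gm45929 (-1.47, -1.01 and -1.24) is a transcript model that spans Mef2b, so that the pair is not 2 independent genes. Carmil2, a regulator of actin, differed by -1.26, -1.40 and -1.22. Outside chromosome 8 and the imprinted genes, the lasting lowered genes were Ooep, a maternal factor of oocytes and early embryos (32.8, 23.2 and 7.38 FPKM in WT and 13.9, 7.74 and 2.55 in 1KO+1CI cells), and As3mt, an arsenite methyltransferase (-1.37, -1.10 and -1.17).

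Genes of the Y chromosome were higher than in WT. All 5 measured Y genes were above WT on all 3 days, with medians of 1.60, 1.54 and 1.06, and Ddx3y, Uba1y and Zfy1 were lasting. Ddx3y, an RNA helicase, was 4.54, 7.28 and 3.84 FPKM in WT, 13.4, 25.3 and 14.1 in 1KO and 15.8, 23 and 14.8 in 1KO+1CI cells (limma mean difference 1.62 ± 0.14 SE, adjusted p = 0.0357). Uba1y, the Y copy of a ubiquitin-activating enzyme, was 1.47, 2.15 and 0.792 in WT and 8.11, 16.3 and 10.0 in 1KO+1CI cells (limma mean difference 2.32 ± 0.21 SE, adjusted p = 0.0357). Eif2s3y (0.64, 0.49 and 0.06) and Uty (0.64, 0.56 and 0.37) differed less. Xist was 0.572, 0.819 and 0.305 FPKM in WT and 1.25, 0.61 and 0.28 in 1KO+1CI cells, and the list of Y genes with Xist had medians of 0.64, 0.52 and 0.22 over 4 measured genes. The cause of this difference was not tested. In bulk RNA, here and in all comparisons above and below, fewer cells of a type and less RNA per cell cannot be told apart.

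**Figure D3:**
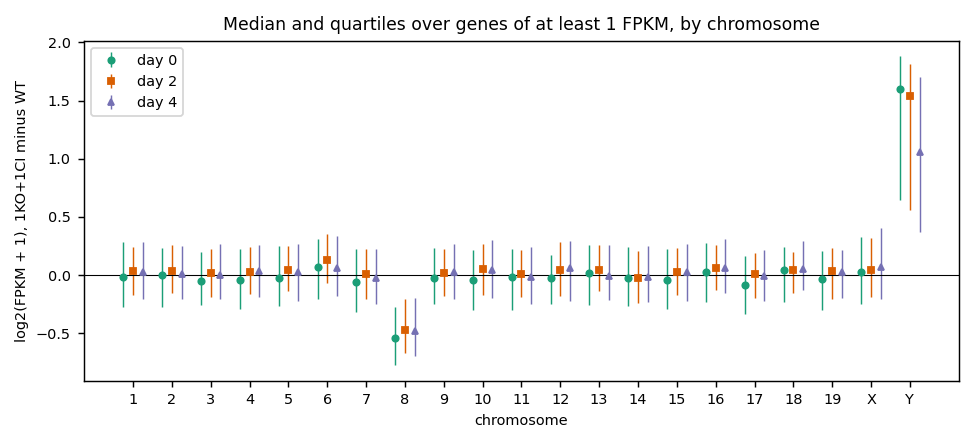
Median difference in log2(FPKM + 1), 1KO+1CI minus WT, for the genes of each chromosome that reached 1 FPKM, with 1 symbol for each day and bars from the lower to the upper quartile. Chromosome 8 lies near -0.5 on all days, the medians of the 5 genes of the Y chromosome lie above 1, and the other chromosomes lie close to 0.

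The lasting raised genes named next were put together with their values already seen and, but for S100a4, are on none of the gene lists. Bgn (chrX:73483602-73495933, plus strand), the matrix proteoglycan biglycan, was 37.6, 4.39 and 2.34 FPKM in WT, 101, 11.7 and 4.47 in 1KO and 151, 25.7 and 14.7 in 1KO+1CI cells (limma mean difference 2.17 ± 0.13 SE, adjusted p = 0.0143). S100a4, a calcium-binding protein of fibroblasts, was 27.3, 6.8 and 4.22 in WT and 109.9, 24.9 and 15.4 in 1KO+1CI cells (limma mean difference 1.78 ± 0.13 SE, adjusted p = 0.0306). Fbln2, a matrix glycoprotein, differed by 1.52, 1.61 and 1.88 and the fibrillar collagen gene Col5a2 by 1.73, 1.46 and 2.02, and both passed limma (adjusted p = 0.0357 and 0.0491). Lox, Grem1, Mgp, Ecm1, Cd44, Cav1, Emp1, Angptl2, Inhba, Masp1 and the chemokines Ccl2 and Ccl7 were lasting but did not pass limma. For Ccl2 the FPKM were 4.94, 1.18 and 0.592 in WT and 27, 4.57 and 4.75 in 1KO+1CI cells.

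Most markers of the feeder fibroblasts were also above WT on each day, but only S100a4 was lasting. Of 16 listed markers 14 were measured, with medians of 0.95, 0.58 and 0.62 and 6, 3 and 4 raised, none lowered. Their summed level was 291, 170.4 and 235 FPKM in WT, 513, 142 and 258 in 1KO and 537, 175 and 627 in 1KO+1CI cells. Of the 14, 13, 12 and 11 were above WT. The highest difference was that of S100a4 at days 0 and 2 and of Acta2 at day 4. The lowest was that of Tagln at days 0 and 2 and of Twist2 at day 4, so the day 4 sum does not stand for every marker. The defining collagens differed by 0.91, 1.01 and 0.84 for Col1a1, 0.98, 1.08 and 1.40 for Col1a2 and 1.47, 0.63 and -0.15 for Col3a1, Thy1 by 1.60, 0.90 and 0.09 and Postn by 0.73, 0.79 and 0.62. Of the 58 lasting raised genes, 24 (41.4%) had their highest FPKM at day 0, the day with feeders, in all 3 lines, as did 12 of the 14 markers and 12.6% of all genes. The part of feeder cells in these results was not tested. Among the lasting raised germline, X-linked germ cell, Y-linked and imprinted genes above, Gtsf1, Xlr3a and H19 shared this day 0 maximum, and Zbp1 and Parp12, described next, did too.

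Among 22 measured genes of primitive endoderm, the lineage that forms the endoderm of the yolk sac, Cubn and Srgn were lasting. The medians were 0.29, 0.59 and 0.94, with 4, 7 and 9 raised and 1, 0 and 0 lowered. Above WT were 17, 19 and 22 of the 22. The summed level was 661, 842 and 458 FPKM in WT and 600, 625 and 867 in 1KO+1CI cells. The sum was thus below WT at days 0 and 2. Lrp2 was lowest at day 0, Apoe at day 2 and by the mean over the 3 days, and Amn at day 4. Cubn, an endocytic receptor, was 0.039, 0.095 and 0.101 FPKM in WT and 1.1, 1.64 and 3.08 in 1KO+1CI cells. Srgn, a secretory granule proteoglycan, was 0.0595, 0.102 and 0.188 and 1.91, 3.41 and 6.79. The defining factors Gata6 (0.78, 1.47 and 0.94), Sox17 (0.16, 0.69 and 1.01) and Gata4 (0.12, 0.39 and 0.29) were not lasting. Nefm, a neurofilament gene, was 2.83, 3.11 and 7.37 FPKM in WT and 7.49, 10.8 and 137 in 1KO+1CI cells, and the noncoding A230070E04Rik, which overlaps it, ran in parallel (1.24, 1.57 and 3.95). Plac8 differed by 1.32, 1.96 and 2.44 and Serpina3m, of a family of close copies, by 1.13, 2.32 and 3.25. Other lasting raised genes were Ppp2r2c (1.28, 1.94 and 2.12), Rusc2 (1.41, 1.08 and 1.82), the X-linked AU022751 (1.20, 1.65 and 2.69) and the noncoding Eyelinc18 (1.63, 1.15 and 1.12).

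Genes for sensing viral RNA and the interferon response had medians of 0.40, 0.17 and 0.18 over 26 measured members. Zbp1, a sensor of Z-form nucleic acids, was the lasting one, at 2.08, 0.0735 and 0.0665 FPKM in WT and 7.25, 1.54 and 2.09 in 1KO+1CI cells, and Parp12, an interferon-induced ADP-ribosyltransferase outside the list, was lasting too (1.21, 2.43 and 1.16). Stat2 had the lowest mean over the 3 days (-0.39, -0.69 and -0.38). The zinc finger genes Zfp600 and Zfp951 were lasting, with Zfp600 at 4.94, 11.5 and 2.28 FPKM in WT and 27.9, 37.9 and 8.73 in 1KO+1CI cells (limma mean difference 1.83 ± 0.19 SE, adjusted p = 0.0491) and Zfp951 at 2.16, 2.27 and 1.57 (adjusted p = 0.0487). Both belong to families of similar copies, so their counts are uncertain.

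Repeat copies were lasting more often in the upward direction. On single days 2066 (5.38%), 2318 (6.04%) and 2614 (6.81%) of the 38385 copies were raised and 2230 (5.81%), 2142 (5.58%) and 1769 (4.61%) lowered. On all 3 days 314 copies were raised (0.818%) and 50 lowered (0.13%). IAPEz-int, the internal part of the IAP retrotransposon, made up 212 of the 314 (67.5%) but 1.11% of the copies listed. The 50 lowered copies were spread over 39 repeat names with at most 4 copies of one name. Of the lasting raised copies, 255 were of the ERVK and 25 of the ERV1 class of endogenous retroviruses, from 3142 and 688 listed.

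Of the 426 listed IAPEz-int copies, 212, 366 and 426 were raised, and 416 were above WT on every day. Their mean was 0.727, 0.792 and 0.563 FPKM in WT, 7.14, 4.7 and 17.1 in 1KO and 2.26, 4.62 and 23.4 in 1KO+1CI cells, a difference of 0.92, 1.65 and 3.97. The gap to WT widened with each day, and WT stayed below 1 FPKM. Its LTR, IAPLTR1_Mm with 76 copies, followed with 0.57, 1.33 and 3.46 and 22 lasting copies, and IAPLTR1a_Mm with 25 copies differed by 0.27, 0.68 and 2.47 and had none. The copies of a family are similar in sequence, so their counts are not independent and can be exchanged between copies. Because each listed copy must be above 0 in all 9 libraries, copies silent in WT are not in these numbers.

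The lasting raised copies had 38 repeat names, and those with the most copies after IAPEz-int and IAPLTR1_Mm were as follows. RLTR1B-int, an ERV1 element with 49 copies, was 5.12, 7.57 and 6.65 FPKM in WT and 9.57, 13.7 and 45.6 in 1KO+1CI cells with 14 lasting copies, and LTRIS2 (0.51, 0.65 and 2.10) and RMER16-int (0.44, 0.61 and 2.24) had 9 each. MMVL30-int had the highest difference of day 0 and a smaller one later (1.19, 0.45 and 0.59). As the median over its copies it was 0.61, 0.26 and 0.27, under 1 at day 0, and with a pseudocount of 0.1 it was 1.08 at day 4. IAPEY4_I-int (0.08, 0.79 and 0.89) was among the 3 highest at day 2, and RLTR6_Mm (0.89, 0.25 and 0.16) among the 3 highest at day 0. MMERVK10C-int differed by 0.32, 0.77 and 0.77, MERVL-int and its LTR MT2_Mm by 0.78, -0.15 and 0.45 and 0.53, -0.14 and 0.29, and ETnERV-int by -0.44, 0.03 and 0.35. The LINE-1 families L1Md_T, L1Md_A and L1Md_Gf had no raised copy on any day, with differences of 0.02, -0.25 and -0.10 for L1Md_T, 0.06, -0.21 and -0.20 for L1Md_A and -0.01, -0.31 and -0.15 for L1Md_Gf. The pericentromeric GSAT_MM satellite had 2 listed copies and differed by 0.01, -0.04 and 0.01.

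Among the 371 families with at least 10 copies, 1, 2 and 7 were raised by 1 or more and none lowered. The lowest were RLTR20C2_MM, MMETn-int and MLT1K at day 0 (-0.74, -0.61 and -0.60), RMER10A, RLTR20B1 and (TTTTG)n at day 2 (-0.65, -0.54 and -0.53), and Lx2B, (CAAAAA)n and RMER15-int at day 4 (-0.67, -0.61 and -0.42). The limma fit over families called none, with 48 at an unadjusted p below 0.05 and a smallest adjusted p of 0.242, and IAPEz-int itself had a mean difference of 2.18 ± 0.56 SE with an adjusted p of 0.248.

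**Figure D4:**
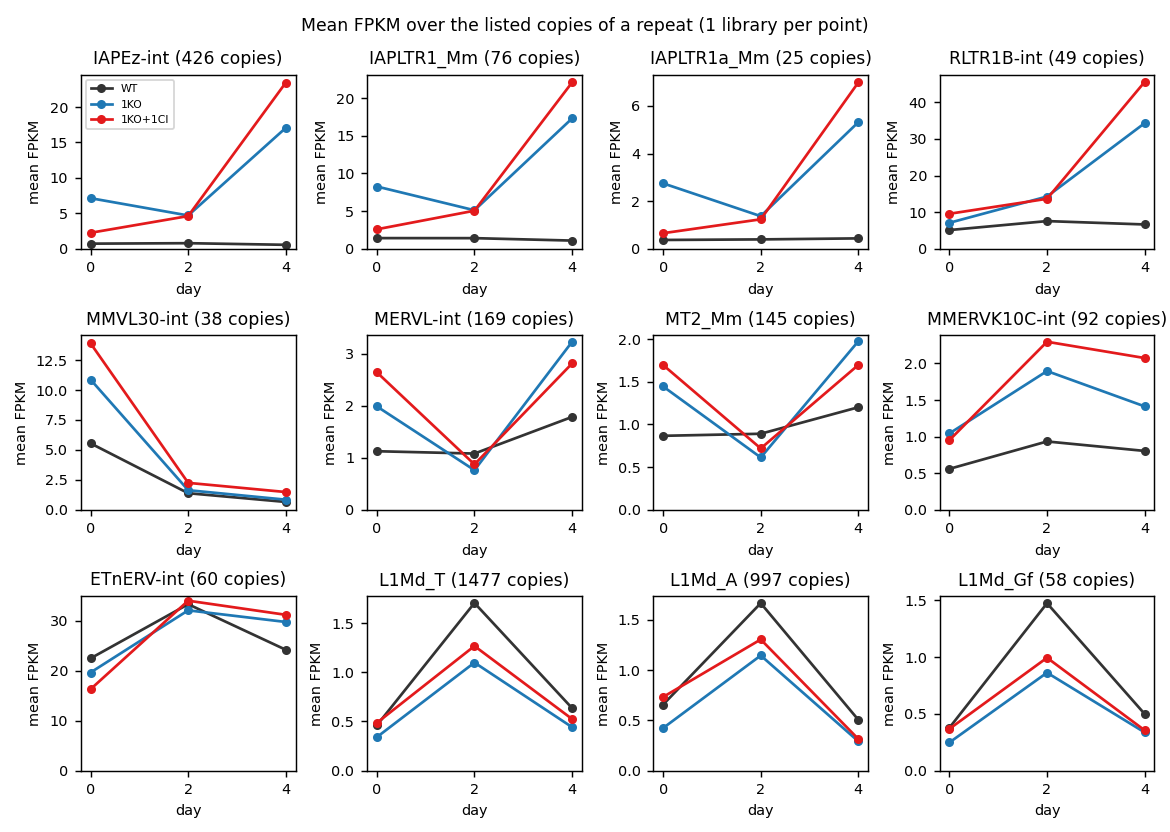
Mean FPKM over the listed copies of 12 repeat families, on the vertical axis, by day in WT (black), 1KO (blue) and 1KO+1CI (red) cells, with 1 library for each point. IAPEz-int in 1KO+1CI cells goes from 2.26 at day 0 to 23.4 at day 4 while WT stays below 1, whereas the LINE-1 families are at or below the WT level at days 2 and 4.

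Beside the lasting genes, most gene groups of development differed from WT on some days only. The 15 measured primitive streak genes had medians of -0.05, 0.18 and 1.52 and 9 of them were raised at day 4. Wnt8a had the highest and Mesp2 the lowest mean difference (0.06, 1.95 and 2.31 and -0.03, -0.69 and -0.49). T (brachyury), the defining factor, was 0.782, 0.282 and 2.07 FPKM in WT and 0.901, 0.438 and 27.2 in 1KO+1CI cells, so the lines differed little until day 2. Naive pluripotency genes had medians of 0.44, -0.49 and -0.30, from above WT at day 0 to below it, with Dppa3 the highest (1.31, 1.03 and 0.82) and Klf2 the lowest (-0.69, -1.67 and -1.32) by the mean over the 3 days. The 15 formative epiblast genes had their highest median at day 2 (0.01, 0.70 and -0.37), with Lef1 highest (2.05, 2.48 and 0.31) and Slc7a3 lowest (0.01, -0.41 and -0.50) by the mean over the 3 days. Trophoblast genes had -0.07, -0.24 and 0.86 with 11 of 24 raised at day 4, and Prl2c2 had the highest and Sin3b the lowest mean difference (0.49, 1.34 and 0.86 and -0.72, -0.82 and -0.35). The 8 core pluripotency genes (0.06, -0.11 and -0.16) and the 10 neuroectoderm genes (0.07, -0.21 and -0.36) held no lasting gene. By the mean over the 3 days, Sox2 was the lowest of the former (-0.25, -0.32 and -0.45), and Dll1 was the highest and Pax6 the lowest of the latter (0.20, 1.42 and -0.54 and -0.95, -1.01 and -0.80).

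**Figure D5:**
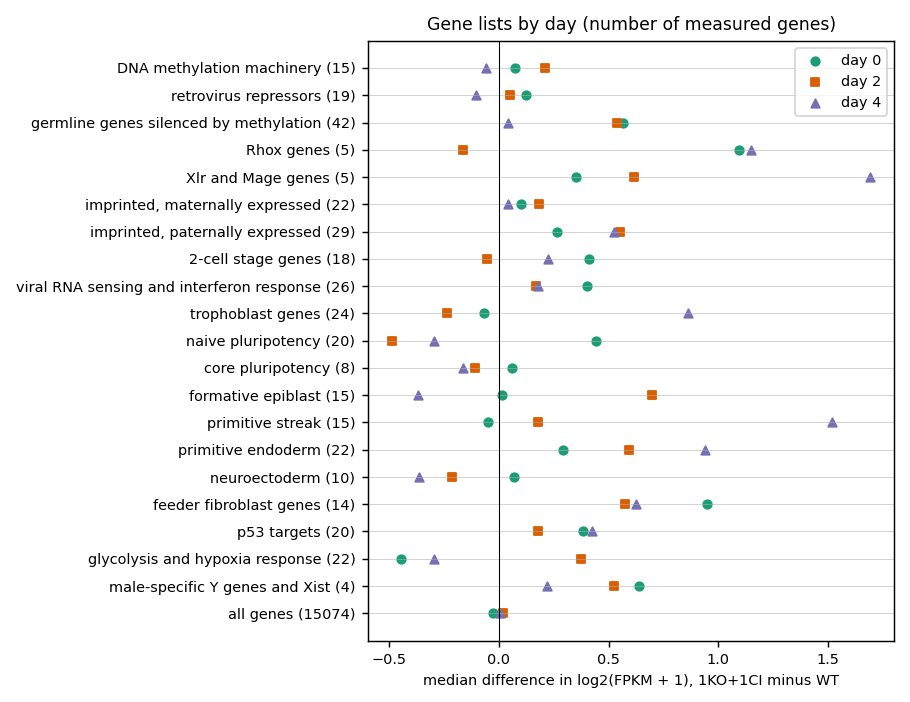
Median difference in log2(FPKM + 1), 1KO+1CI minus WT, on the horizontal axis for each gene list, with 1 symbol for each day and the number of measured genes in brackets. The feeder, paternally expressed and primitive endoderm lists are among those above 0 on all days, the germline list is close to 0 at day 4, and the primitive streak list separates at day 4.

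The largest differences of single days were held partly by lasting genes and partly by genes of that day. The 3 highest were Xlr3a, Xlr3b and Efhc2 at days 0 and 2, and Mir675, H19 and Nefm at day 4. The lowest at day 0 were Sumo2, which encodes a small ubiquitin-like modifier (-2.97), Slc39a8, a zinc transporter (-2.68), and Tnnc1, a muscle troponin (-2.58). At day 2 they were Krt42 (-2.46), Cd37 (-2.29) and Zmat4 (-2.23), and at day 4 Cdkn1c, Grb10 and Adad2 (-2.13). Zmat4 and Adad2 lie on chromosome 8.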

How the data were processed

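RNA of polyA-enriched libraries was sequenced by the authors. Per the labels and the study's methods, reads were trimmed with Trim Galore, aligned to mm10 with HISAT2, sorted with SAMtools and counted with HOMER. For tool versions, annotation, strand and multi-mapping reads, nothing was stated in the sources used here. What the authors deposited was FPKM for genes and repeat copies. Both tables list only rows above 0 in all 9 libraries. Of 15095 gene rows, 21 whose symbol reads as a date or a 0 name no gene and were left out, and they hold no more than 0.117% of any library's FPKM.

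Differences were taken on log2(FPKM + 1). limma 3.58.1 (R 4.3.3) was fitted on 6 libraries with day and line as terms and a mean-variance trend, leaving 2 residual degrees of freedom. Python 3.11.15 did the rest, and the scripts were tested on simulated data. The members, gene lists and tests were chosen with earlier results of these data known. Genes were named by rule: Dnmt1, the 3 largest differences in each direction on each day, the 12 lasting genes in each direction with the largest smallest-day difference, lasting list members or else each list's extremes, and fixed repeat families. Other genes, among them Dazl, Mael, Ddx4, Dnmt3l, Dnmt3a, Uhrf1, Phlda2, Peg10, Snrpn and the further lasting genes, were picked with their values already seen. The chromosome 8 alternatives were also chosen after seeing the data. Coordinates are from GENCODE M21 and RefSeq on the same build. Depth is in the report. Results for some genes are not reported here.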

Additional observations from a re-analysis of the deposited data

Results flagged for a closer look

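With 1 library for each line and day, no group was searched for outlying samples. Flagged here were genes that passed the limit of 1 in opposite directions on different days, 60 in all. Those named are the 3 with the widest span between their largest and smallest difference and, chosen after their values were seen, the members of the gene lists. The change of the difference with the day was not tested, and each rests on single libraries.

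Sumo2, a small ubiquitin-like modifier, was 149, 20.5 and 29.5 FPKM in WT and 18.2, 80.8 and 161 in 1KO+1CI cells, with differences of -2.97, 1.93 and 2.41 and a span of 5.38. Acta1, skeletal muscle actin, was 18.2, 15.6 and 13.6 FPKM in WT and 3.97, 10.8 and 119 in 1KO+1CI cells, with differences of -1.95, -0.49 and 3.04 and a span of 4.99. Ltb, lymphotoxin beta, was 13.1, 1.39 and 2.78 FPKM in WT and 1.38, 0.819 and 15.6 in 1KO+1CI cells, with differences of -2.57, -0.39 and 2.13 and a span of 4.71. Fgf8, a growth factor of the primitive streak, was 9.17, 0.038 and 8.51 FPKM in WT and 2.98, 1.96 and 63 in 1KO+1CI cells, with differences of -1.35, 1.51 and 2.75 and a span of 4.11. Cxcl10, an interferon-induced chemokine, had differences of -1.15, 1.22 and 2.63 and a span of 3.78. Krt19, an epithelial keratin, had differences of -1.67, -0.11 and 2.00 and a span of 3.67. Krt8, an epithelial keratin, had differences of -1.66, -0.46 and 1.43 and a span of 3.09. Bnip3, a mitophagy receptor induced by low oxygen, had differences of -0.88, 1.39 and -1.66 and a span of 3.05. Foxd3, a factor of epiblast and neural crest, had differences of 1.80, -0.05 and -1.21 and a span of 3.01. Egln3, a prolyl hydroxylase, had differences of -1.70, 1.18 and -0.98 and a span of 2.88. Krt18, the partner of Krt8, had differences of -1.80, -0.68 and 1.04 and a span of 2.84. Nanog, a pluripotency factor, was 163, 89.5 and 56.8 FPKM in WT and 232, 40.9 and 157 in 1KO+1CI cells, with differences of 0.51, -1.11 and 1.45 and a span of 2.56. Sfmbt2, an imprinted Polycomb gene, had differences of -1.05, -0.89 and 1.44 and a span of 2.49. Dmrt1, a germ cell factor, had differences of -0.07, 1.34 and -1.09 and a span of 2.43.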

How the results depend on the processing

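Each line and day is 1 library, and which clone of the transgenic line was used is not stated, so clone, culture and library differences cannot be told apart from the line. Genes silent in a library are not in the tables. The limma fit, with day as a term, pairs the lines by day. No difference of 1 or more changed sign under the alternatives run, and for a single gene a smaller pseudocount cannot change the sign. Of smaller values, the mean in place of the median turned the sign for the Rhox list at day 2 (-0.16 to 0.27), the maternally expressed list at days 0 (0.10 to -0.02) and 4 (0.04 to -0.02) and the neuroectoderm list at day 0 (0.07 to -0.14), and L1Md_Gf at day 0 (-0.01) turned to 0.01 as the median over copies and 0.00 with the gene table's scaling. All 66 lasting genes stayed past 1 on all days after median-ratio or common-sum scaling, which moved the median of all genes by at most 0.08. They also did so with pseudocounts of 0.1 and 0.01, but that outcome was fixed in advance. A smaller pseudocount can only widen the difference of a gene. Counts depended on the pseudocount and the limit.

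Genes raised at days 0, 2 and 4 numbered 993, 1056 and 1100 with a pseudocount of 0.1, 1273, 1413 and 1394 with 0.01, 1459, 1389 and 1619 with a limit of 0.5, and 37, 36 and 59 with a limit of 2. Lowered genes numbered 894, 580 and 616 with a pseudocount of 0.1, 1095, 768 and 816 with 0.01, 1883, 1192 and 1255 with a limit of 0.5, and 8, 6 and 4 with a limit of 2. Lowered genes thus outnumbered raised genes at day 0 with the limit of 0.5 (43.7% raised). Scaling to a common sum left 100 lowered at day 4 and moved the raised share of that day's calls from 74.7% to 84.5%.

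Lasting genes, raised and lowered, numbered 175 and 45 with a pseudocount of 0.1, 260 and 73 with 0.01, 218 and 200 with a limit of 0.5, and 6 and 0 with a limit of 2. Over days 2 and 4 alone they numbered 99 and 22, over days 0 and 4 alone 91 and 24, and over days 0 and 2 alone 122 and 33. Without chromosome 8, 4 were lowered. Lasting copies numbered 716 and 229 with a pseudocount of 0.1, 875 and 287 with 0.01, 935 and 518 with a limit of 0.5, and 19 and 0 with a limit of 2. IAPEz-int differed by 1.51 at day 0 with a pseudocount of 0.1.

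By limma, 65 genes were higher and 25 lower with a pseudocount of 0.1, 271 and 322 with all 9 libraries, where lower genes outnumbered higher ones, and 13 and 0 without the trend. Among genes that reached 1 FPKM, 6 were lower. Without day 0 the counts were 0 and 0 (1708 genes at an unadjusted p below 0.05), without day 2 also 0 and 0 (1715), and without day 4 they were 5 and 0, with fewer residual degrees of freedom. Without chromosome 8, or with its genes raised by its median, 0 genes were lower by limma, with 21 and 22 higher. Without day 4, 14 repeat families were higher and 4 lower.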

Other observations

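Gene groups not described above held no lasting gene, and highest and lowest here refer to the mean difference over the 3 days. Genes of glycolysis and the response to low oxygen had median differences of -0.44, 0.37 and -0.29 over 22 genes, with Gapdh the highest (0.45, 0.29 and 0.63) and Egln3 the lowest (-1.70, 1.18 and -0.98). The prolyl hydroxylase gene Egln3, which is itself induced by low oxygen, was 23.9, 2.58 and 16.1 FPKM in WT and 6.66, 7.11 and 7.7 in 1KO+1CI cells, so the order of the lines at day 2 was opposite to that at days 0 and 4. Targets of p53 had medians of 0.38, 0.18 and 0.42 over 20 genes, with the cell cycle inhibitor Cdkn1a the highest (37.5, 48.6 and 39.3 FPKM in WT and 69.1, 85.5 and 94.2 in 1KO+1CI cells) and Gdf15 the lowest (0.20, -0.76 and -0.77). The 18 measured genes of the 2-cell stage had medians of 0.41, -0.05 and 0.22, with Usp17le the highest (0.93, 0.45 and 1.08) and Zscan4a the lowest (0.18, -0.65 and -0.47).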
